A study of Mus musculus with 2 samples.

Results

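The genes described here are 47 genes of the lysosome in microglia sorted from the brains of sham-operated mice: proteins of the lysosomal membrane, hydrolases of the lumen with their activator proteins, subunits of the proton pump, and the transcription factors of the TFEB family. They were chosen by function from their gene symbols and matched to Ensembl identifiers, and all 47 were found among the 53801 genes listed. Every one was counted, meaning at least 10 reads in each library, as were 13445 genes in all.

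Bulk RNA-seq was performed on 2 libraries of one group, each from 1 mouse. The mice carried a tamoxifen-inducible Cre in one Cx3cr1 allele, labelled Cx3cr1(CreER/wt), on a C57BL/6 background and served as wild-type controls. The Cre occupied 1 Cx3cr1 allele in both mice, and both had been given tamoxifen (75 mg/kg/day, 4 days), with sham surgery 14 days from the first injection and sorting on day 3 after surgery. They were males of 8 to 10 weeks per the labels, and CD11c-Ly6G-CD11b+CD45low cells of the left hemisphere were collected. With a single group no comparison between conditions can be made, so the values below are levels and the difference between 2 mice of the same group, which has no replicate check and no p-value. Libraries of mice with stroke were not analysed here.

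Lysosomes digest proteins, lipids and sugars delivered by endocytosis, phagocytosis and autophagy, and a proton pump (V-ATPase) keeps their lumen acid enough for the hydrolases to work. The pump has a membrane part (V0), which carries the protons, and a cytosolic part (V1), which burns ATP. Microglia are the resident phagocytes of the brain, and inherited loss of many of these hydrolases causes lysosomal storage disease, often with neurological symptoms.

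Library 1 held 23381026 counts on genes and library 2 held 41142609, so that 3 counts, the limit set by a count of 0, equal 0.128 and 0.0729 CPM (counts per 1000000 counts of the library). All 10 microglia markers were counted, with summed levels of 35190 and 42088 CPM. The libraries differed in another cell type's RNA: 12 neutrophil markers, none of them at 0, summed to 4357 CPM in library 1 but to 59249 CPM in library 2, although the gate left out Ly6G+ cells, and all 12 were higher in library 2. The 6 monocyte markers summed to 707 and 3353 CPM, but only Chil3 and Ly6c2 were more than 2-fold higher in library 2, 3 of the 6 were lower there, and their median log2 ratio was 0.031. Border macrophage markers summed to 1281 and 512 CPM, whereas 7 neuron markers together reached 3.81 and 5.47 CPM, with Gad1 at 0 in library 1. Markers of astrocytes summed to 226 and 177 CPM, of oligodendrocytes to 235 and 242 CPM with Cldn11 at 0 in library 2, and of B cells to 570 and 778 CPM with Pax5 at 0 in library 1. The part these cells had in the levels below was not tested, and in bulk RNA fewer cells of a type cannot be told apart from less RNA per cell.

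Lysosome genes were abundant in both mice. Together they took 2.86% of all counts in library 1 (95% exact binomial interval 2.86 to 2.87%) and 2.22% in library 2 (2.21 to 2.22%), a summed level of 25408 ± 4564 CPM (SD, n = 2). Such intervals, here and below, cover counting error only and not the difference between mice. To compare genes with each other, counts were divided by the length of the exons of each gene and scaled to sum to 1000000 in each library (TPM). The median lysosome gene was at 108 TPM in library 1 and 75.8 TPM in library 2, against 12.3 and 6.83 TPM for all genes counted. On this scale 44 of the 47 lay above the median of counted genes in both libraries, and 21 lay in the top 10% in both. Neutrophil markers alone took 15883 of each 1000000 TPM in library 1 and 156617 in library 2, which lowers the TPM of every other gene in library 2, so TPM was used for the order of genes within a library.

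That order was led by 3 genes of different function. Legumain (Lgmn), an asparaginyl endopeptidase that processes other lysosomal enzymes, reached 5519 TPM in library 1 and 2510 TPM in library 2. Laptm5, a membrane protein of lysosomes in haematopoietic cells, reached 5102 and 2538 TPM, and Cd68, a heavily glycosylated membrane protein used as a marker of phagocytes, 3473 and 2858 TPM. The 3 highest places were held by these genes in both libraries, but in a different order, with Lgmn first in library 1 and Cd68 first in library 2. With the longest transcript as length Laptm5 was first in both, at 5790 and 2914 TPM. At the other end were the α-galactosidase gene Gla with 5.29 and 6.04 TPM, the tartrate-resistant acid phosphatase gene Acp5, a marker of osteoclasts, with 3.18 and 7.02 TPM, and the transcription factor gene Mitf with 13.4 and 6.12 TPM. Of the 1081 pairs of lysosome genes, 977 (90.4%) stood in the same order in both libraries, but only 15 of the 46 pairs of neighbours in the mean order did, so that neighbouring places are not distinguished.

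**Figure D1:**
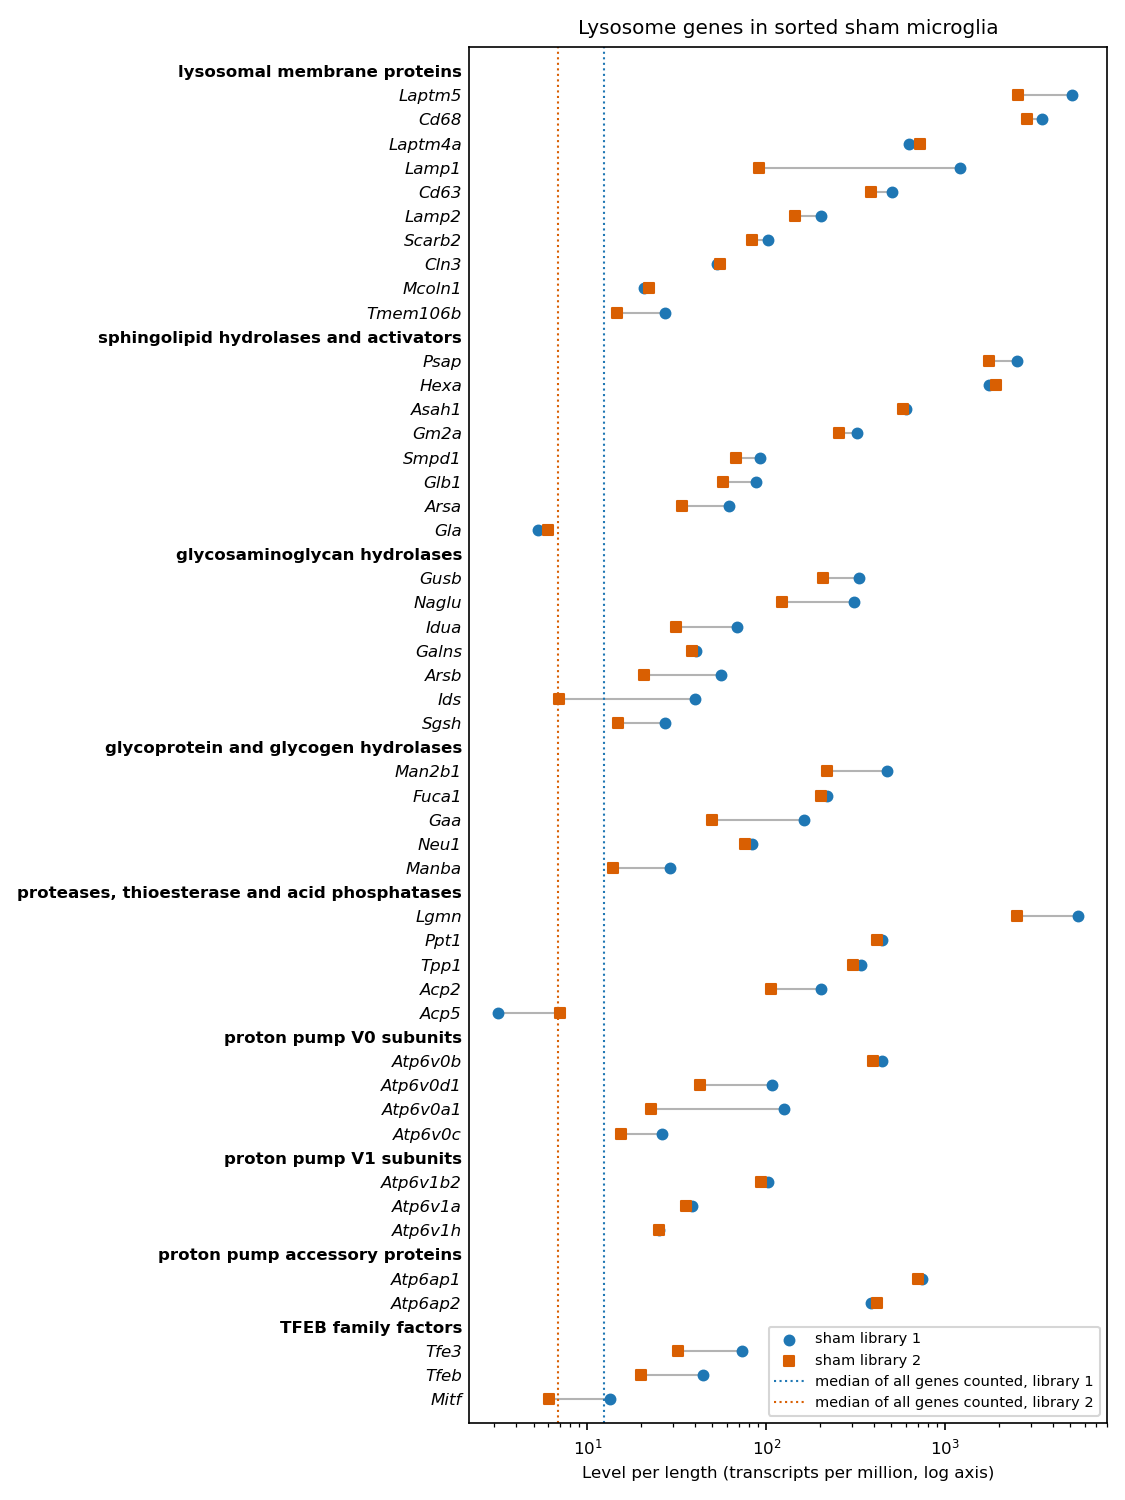
Level of each of the 47 lysosome genes in the 2 sham libraries, in TPM on a log axis, grouped by role; each point is 1 library of 1 mouse, the grey bar joins the 2, and dotted lines mark the median of all genes counted (12.3 and 6.83 TPM). Most points lie to the right of both lines, and Lamp1, Ids and Atp6v0a1 have the longest bars.

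Between the 2 mice most lysosome genes were close: 39 of 47 lay within 2-fold in CPM. More than 2-fold lower in library 2 were 7 (14.9%: Lamp1, Ids, Atp6v0a1, Gaa, Arsb, Atp6v0d1 and Naglu), against 25.9% of all genes counted. More than 2-fold higher was 1 (2.13%: Acp5), against 5.74% of all genes counted. The median log2 ratio of library 2 over library 1 was -0.16 for the lysosome genes and -0.26 for all genes counted, and 27 were lower and 20 higher in library 2. With library sizes set by TMM, which moved the median of all genes to -0.0053, 4 of the 47 were more than 2-fold lower, against 19.4% of all genes counted. The median of the lysosome genes was then 0.10, above 0. The counting interval of the ratio in CPM left out equality for 45 of the 47, and the same share was not computed over all genes counted. With over 1000 counts in both libraries for 40 of the 47, these intervals are narrow. They take the totals as fixed, and a change of totals, as with TMM, moves every ratio.

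**Figure D2:**
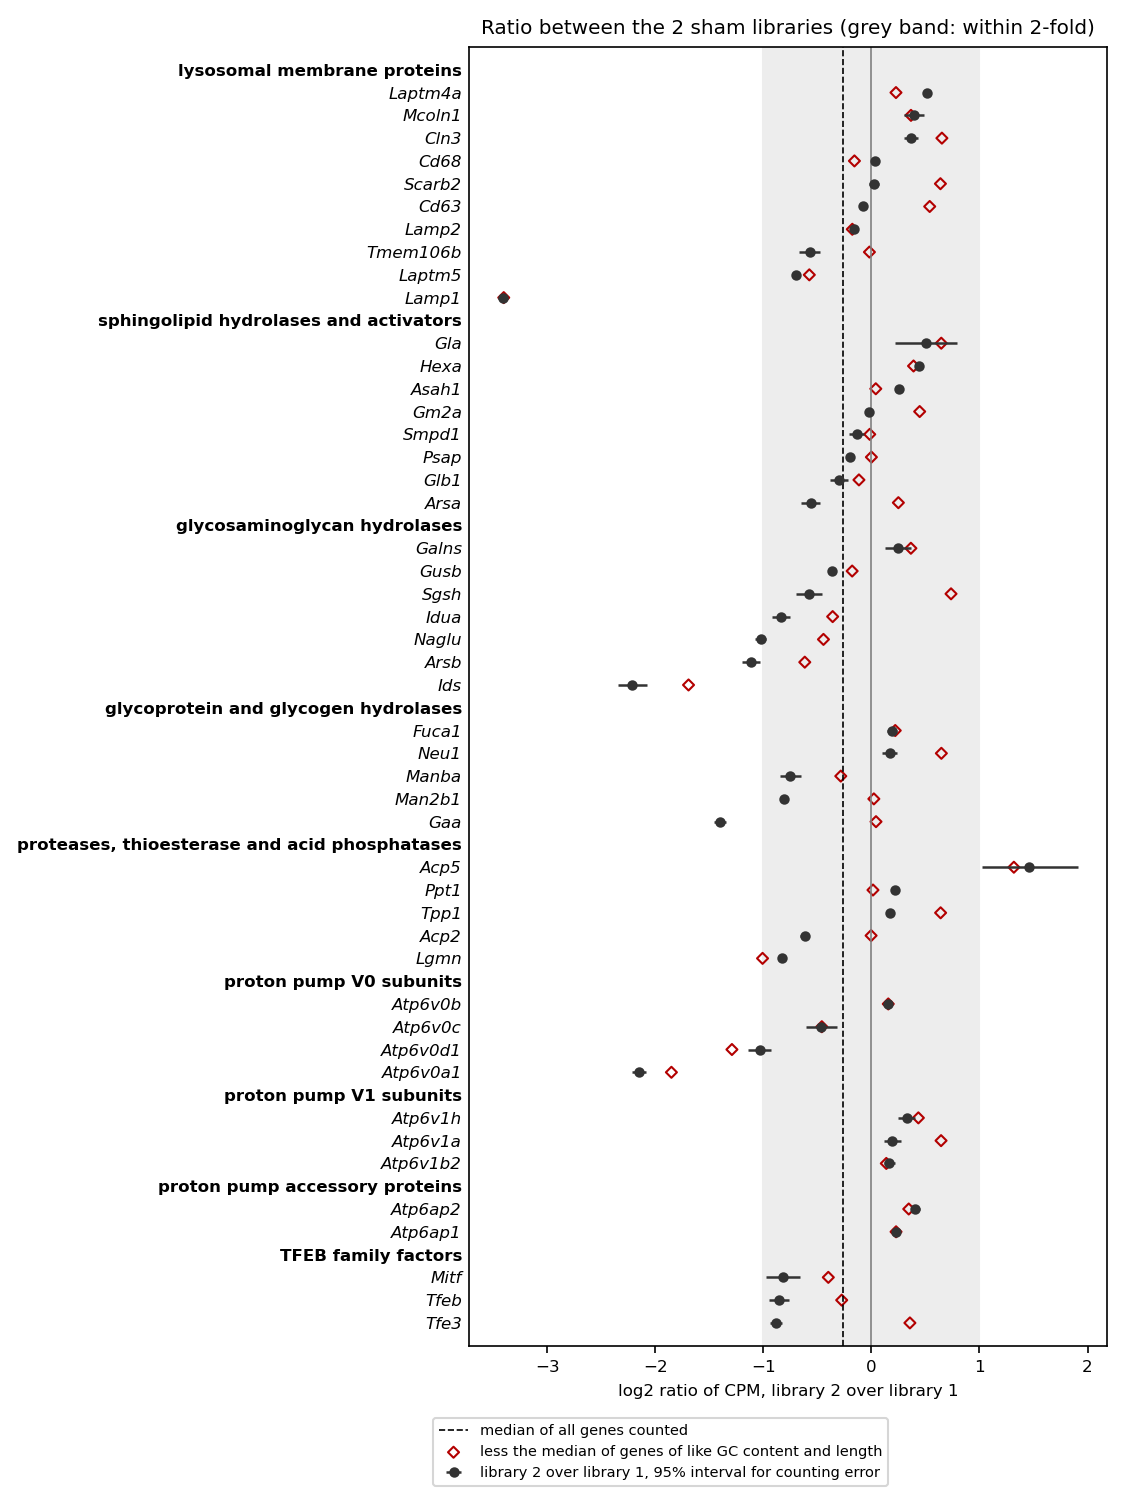
Log2 ratio of CPM in library 2 over library 1 for each lysosome gene (black points; bars are 95% exact intervals for counting error only), and the same ratio less the median of genes of like GC content and length (open diamonds). The grey band spans 2-fold either way and the dashed line is the median of all genes counted; 8 black points lie outside the band, with Lamp1 at -3.41 and Acp5 at 1.46.

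The regulators were present at low to moderate levels. TFEB, TFE3 and MITF are related basic helix-loop-helix factors. TFEB and TFE3 move to the nucleus when lysosomes are stressed or nutrients are short and switch on lysosome genes. Tfe3 was counted 5559 and 5316 times, or 238 and 129 CPM. Tfeb was at 88.7 and 49.0 CPM and Mitf at 29.2 and 16.6 CPM. All 3 were lower in library 2 by a similar amount, with log2 ratios of -0.88, -0.85 and -0.82, none past 2-fold. After adjustment for GC content and length Tfe3 had a ratio of 0.36, while Tfeb and Mitf were at -0.27 and -0.40. Their proportions hardly differed between the mice: of the summed TPM of the family, Tfe3 took 55.6% and 54.4%, Tfeb 33.8% and 33.7%, and Mitf 10.2% and 10.4%. The remaining member of the family, Tfec, had 24 and 88 counts and a share of 0.397% and 1.49%. The ratio of Tfe3 to Tfeb was thus 1.64 in one mouse and 1.61 in the other. These shares and ratios depend on the length used. With the longest transcript as length, Tfe3 was at 83.2 and 36.9 TPM and Tfeb at 83.9 and 37.8 TPM, so neither led.

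These factors bind a palindromic E-box, CACGTG, extended in the CLEAR element of lysosome genes by a leading T to TCACGTG. Both strands of RefSeq promoters, from 250 bases before to 50 bases after the start (GRCm38.p6), were searched for these letters. The table held 55 promoters of 43 of the 47 genes; Asah1, Atp6v1h, Atp6v1b2 and Galns had no entry. TCACGTG was present in 13 of the 55 promoters (23.6%), each of a different gene, against 1237 of all 32851 promoters (3.77%). Every one of these matches contains CACGTG, which was found in no further promoter of these genes and in 7.15% of all promoters. The M-box TCATGTG, which MITF also binds, was in 6 of the 55 (10.9%: Ppt1, Scarb2, Tpp1, Acp5, Atp6v0c and Gla) and in 3.77% of all promoters. Of 71 promoters of the other lysosome genes described at the end, TCACGTG was in 12 (16.9%), CACGTG in 14 (19.7%) and TCATGTG in 7 (9.86%). Among these, 11 promoters of cathepsins and cystatin C held TCACGTG in 2 (18.2%) and CACGTG in 4 (36.4%). The CLEAR element is known from lysosome genes, so a share above that of all promoters is not an independent result. Where the letters TCACGTGA occur, both strands match and the site was counted once. The 13 promoters thus held 20 separate sites, at -228 to +4 from the start. A match describes these letters only and not binding, and binding was not measured.

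Promoters are shown only for genes with a TCACGTG match, to let the sites be read in place. They are the promoters with the most matches and, of the other genes with a match, those with the largest differences between the mice. Ids, Atp6v0a1, Arsb and Acp5 differed by more than 2-fold but had no TCACGTG match, so they are not shown. TCACGTG and its reverse complement CACGTGA are in capitals, each sequence runs 5′ to 3′ on the strand of its gene, and the coordinates are those of GRCm38. The first has 4 sites within 75 bases before the start of Lamp1 (chr8:13159086-13159160, plus strand). Atp6v0b (chr4:117887334-117887384, minus strand) has 2 just before its start, and Gla (chrX:134601186-134601245, minus strand) 2 far upstream with an M-box, left in lower case, between them. In Atp6v0d1 (chr8:105566061-105566110, minus strand) the site spans the start itself. None of these 4 windows overlaps an exon of its gene in GENCODE M21.
Lamp1: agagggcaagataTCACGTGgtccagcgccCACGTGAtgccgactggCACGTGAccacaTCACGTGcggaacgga
Atp6v0b: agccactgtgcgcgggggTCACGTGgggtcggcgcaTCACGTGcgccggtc
Gla: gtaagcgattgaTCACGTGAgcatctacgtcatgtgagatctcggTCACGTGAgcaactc
Atp6v0d1: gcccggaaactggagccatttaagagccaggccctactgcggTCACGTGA

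Shorter windows of 30 bases are shown for 5 other genes. Those of Mcoln1 (chr8:3500462-3500491, plus strand) and Cln3 (chr7:126583340-126583369, minus strand) lie wholly in annotated exons of these genes, and that of Naglu (chr11:101070008-101070037, plus strand) lies in an exon for 26 of its 30 bases, because longer transcripts start further upstream. That of Lgmn (chr12:102439125-102439154, minus strand) is intronic with respect to such a transcript. That of Gaa (chr11:119267810-119267839, plus strand) lies upstream of the gene.
Mcoln1: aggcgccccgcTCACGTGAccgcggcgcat
Cln3: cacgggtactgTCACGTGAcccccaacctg
Naglu: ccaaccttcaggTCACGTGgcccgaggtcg
Gaa: ttttctgtgcgaTCACGTGtttgactctga
Lgmn: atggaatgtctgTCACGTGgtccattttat

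**Figure D3:**
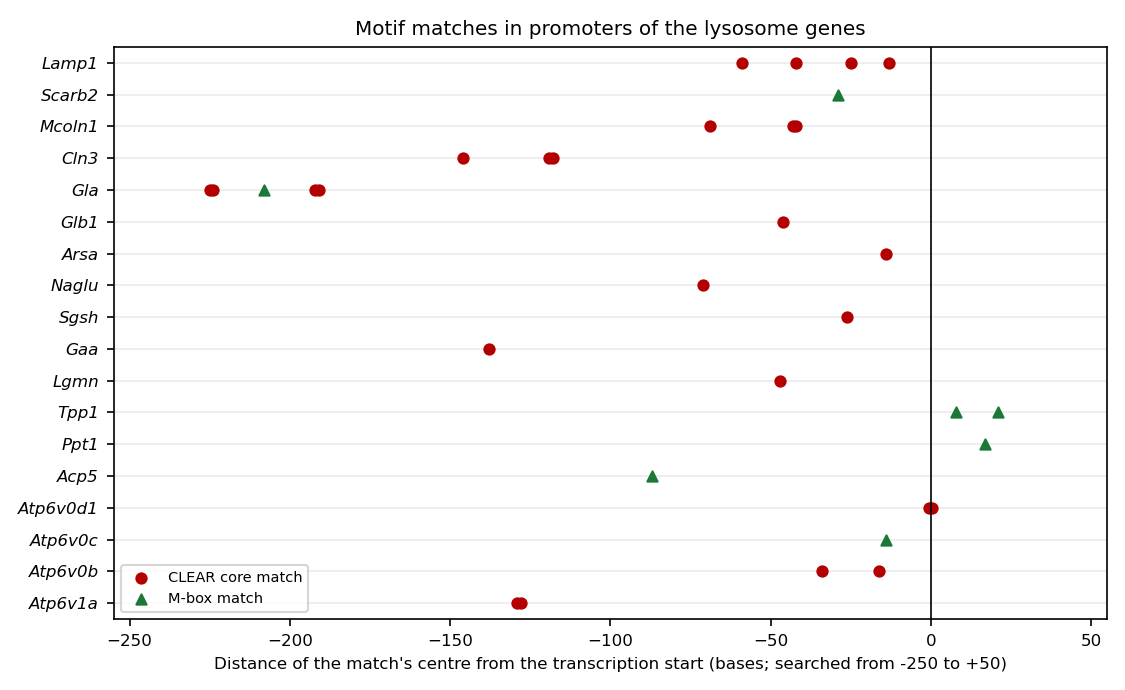
Position of each match of the CLEAR core (circles) and the M-box (triangles) in promoters of the lysosome genes, as the distance in bases of the centre of the match from the transcription start; a palindromic site appears as overlapping circles. Lamp1 has 4 sites, and 9 genes have a site of the CLEAR core within 100 bases before the start.

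The genes with such a site did not share a direction between the mice. Of the 5 with more than 1 site, Lamp1 was the lowest of all lysosome genes in library 2 relative to library 1, whereas Gla, Mcoln1, Cln3 and Atp6v0b had log2 ratios of 0.50, 0.39, 0.37 and 0.15. Of the 8 with 1 site, only Atp6v1a was higher in library 2, at 0.19. The others were lower, from -0.30 for Glb1 to -1.40 for Gaa. Among all 47 genes, 27 were lower and 20 higher.

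The 10 genes of the lysosomal membrane summed to 11633 CPM in library 1 and 8138 CPM in library 2. Laptm5, at chr4:130913125-130936141, was the most counted of them with 6794 and 4195 CPM. Cd68 was at 1535 and 1568 CPM (1551 ± 23.1, SD, n = 2), a log2 ratio of 0.030. The tetraspanin gene Cd63 was at 652 and 620 CPM, and Laptm4a, a relative of Laptm5 found in many tissues, at 392.5 and 561 CPM. Laptm5 and Laptm4a therefore differed in opposite directions, -0.70 and 0.52 on the log2 scale, with Laptm5 higher in library 1 and Laptm4a higher in library 2.

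The LAMP proteins form the glycoprotein coat of the lysosomal membrane, and here the mice stood furthest apart. Lamp1, at chr8:13159161-13175338 on the plus strand, was counted 26410 times in library 1 and 4383 times in library 2, the deeper library, or 1130 and 107 CPM. Lamp2, at chrX:38401357-38456454, was counted 15818 and 24879 times, or 677 and 605 CPM. Lamp1 was thus 10.6-fold lower in library 2 (interval 10.3 to 10.9) while Lamp2 had a log2 ratio of -0.16. Fewer than 1% of all genes counted had a lower ratio than Lamp1, which stood at the 0.417th percentile. Per length, Lamp1 exceeded Lamp2 by 5.96-fold in library 1 and was 0.629 times Lamp2 in library 2, so the main LAMP transcript differed between the mice. With the longest transcript as length the gap in library 1 was smaller. Lamp1 was then at 1123 and 86.3 TPM and Lamp2 at 416 and 303 TPM. In rank by TPM, Lamp1 was gene 95 of library 1 and gene 1273 of library 2. Lamp3 had no count, and Lamp5 had 2 counts in library 1 and 0 in library 2. The ratio of Lamp1 was -3.40 after adjustment for GC content and length. Of its exon bases, 9.31% overlap exons of Grtp1 on the opposite strand, and the strand setting of the counting is not given in the sources used here.

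Other membrane genes were closer. Scarb2, the receptor that carries glucocerebrosidase to lysosomes, was at 225 and 228 CPM, and Cln3, mutated in juvenile Batten disease, at 107 and 138 CPM. Mcoln1, the calcium channel TRPML1, was at 55.2 and 72.6 CPM, and Tmem106b, a regulator of lysosome size and transport, at 66.0 and 44.4 CPM. Per length Tmem106b was the lowest of the 10 by mean, with 27.1 and 14.7 TPM. Mcoln1 was next with 20.8 and 22 TPM, in an order that turned between the libraries. With the longest transcript as length the order did not turn, with Mcoln1 at 42.3 and 45.4 TPM and Tmem106b at 24.3 and 13.4 TPM.

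None of the 8 genes of sphingolipid breakdown was past 2-fold between the mice, and they summed to 5127 and 5334 CPM. Of all genes counted, 25.9% were more than 2-fold lower in library 2 and 5.74% higher. Psap encodes prosaposin, the precursor of the saposins that present lipids to hydrolases. It was at 2421 and 2107 CPM. Hexa, the α subunit of β-hexosaminidase, was at 1234 and 1673 CPM. The acid ceramidase gene Asah1 was at 723 and 861 CPM, and Gm2a, the GM2 activator, at 463 and 457 CPM. Psap was lower in library 2 with a log2 ratio of -0.20, which was 0.057 with TMM, and Hexa was higher. Gm2a differed by less than its counting interval (log2 ratio -0.020, interval -0.054 to 0.014). Smpd1 (acid sphingomyelinase), Glb1 (β-galactosidase) and Arsa (arylsulfatase A) had log2 ratios of -0.14, -0.30 and -0.56. Gla was the least counted, with 142 and 354 counts, or 6.07 and 8.60 CPM. Per length Hexa, at 1758 and 1921 TPM, and Psap, at 2509 and 1760 TPM, were the highest of the 8, in an order that turned between the libraries.

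The 7 hydrolases of glycosaminoglycans summed to 1192 and 755 CPM, with 6 of the 7 lower in library 2 and 3 past 2-fold. Gusb, β-glucuronidase, led the group with 530 and 412 CPM. Naglu, which cleaves N-acetylglucosamine from heparan sulfate (chr11:101070012-101077672, plus strand), was at 290 and 143 CPM, a log2 ratio of -1.02 at the edge of 2-fold (interval -1.07 to -0.97). Arsb, arylsulfatase B (chr13:93771630-93943016, plus strand), was at 118 and 54.6 CPM, a log2 ratio of -1.12, and shares 39.9% of its exon bases with genes on the opposite strand. The iduronate sulfatase gene Ids (chrX:70343069-70365084, minus strand) differed most, with 1674 and 635 counts, or 71.6 and 15.4 CPM, 4.64-fold lower in library 2. Idua, which acts after Ids on dermatan and heparan sulfate, was at 102 and 57.1 CPM, Sgsh at 42.4 and 28.4 CPM. Galns, the sulfatase of keratan sulfate, was at 37.5 and 44.4 CPM, the 1 gene of the group that was higher in library 2. Per length Sgsh was lowest by mean in this group, with 27.3 and 14.8 TPM. After adjustment for GC content and length 1 of the 7 was past 2-fold, Ids at -1.69, and Sgsh had turned to 0.74. Of all genes counted, 12.7% were then more than 2-fold lower and 9.70% higher.

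Of the 5 enzymes that trim glycoproteins and glycogen, Man2b1, lysosomal α-mannosidase, led with 1341 and 764 CPM, a log2 ratio of -0.81. Fuca1, α-fucosidase, was at 252 and 288 CPM and the sialidase gene Neu1 at 110 and 123 CPM, both slightly higher in library 2. Gaa, the acid α-glucosidase whose loss causes Pompe disease (chr11:119267887-119285454, plus strand), was at 273 and 104 CPM, 2.64-fold lower in library 2. Its ratio was 0.043 after adjustment for GC content and length, so genes of the same composition were lower by as much. Manba, β-mannosidase, was at 71.1 and 42.3 CPM and was lowest of the group per length, with 29.0 and 13.9 TPM.

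The remaining hydrolases were of several kinds. Lgmn, at chr12:102394084-102439813 on the minus strand, had nearly equal counts, 105395 and 104681, and so 4508 and 2544 CPM, a log2 ratio of -0.83 that became -1.01 after the adjustment. The palmitoyl-protein thioesterase gene Ppt1 was at 576 and 668 CPM and the tripeptidyl peptidase gene Tpp1, both mutated in childhood forms of Batten disease, at 612 and 690 CPM. These 2 were close between the mice, with log2 ratios of 0.22 and 0.17. The acid phosphatase gene Acp2 was at 368 and 240 CPM. Acp5 (chr9:22126727-22135711, minus strand) had the lowest count of the lysosome genes, 53 in library 1, and 256 in library 2, or 2.27 and 6.22 CPM. It was the 1 gene that was more than 2-fold higher in library 2 (log2 ratio 1.46, interval 1.03 to 1.91), the library with the higher summed level of neutrophil markers, and the part of those cells was not tested.

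The proton pump was uneven between its subunits. Of the V0 genes, Atp6v0b, a proteolipid of the proton-carrying ring, was at 319 and 354 CPM. Atp6v0c, the main proteolipid of the ring, was at 31.2 and 22.7 CPM. Per length Atp6v0b exceeded Atp6v0c by 16.9-fold and 25.8-fold, although Atp6v0c is the subunit present in more copies. Atp6v0c has processed copies elsewhere in the genome, of which Atp6v0c-ps2 was counted 218 and 452 times and Atp6v0c-ps1 0 and 3 times, so reads of Atp6v0c may be split or lost among them and its level is uncertain.

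The a subunit anchors the pump and sets which membrane it serves. Atp6v0a1 (chr11:101009452-101063719, plus strand) was counted 6791 and 2684 times, or 290 and 65.2 CPM, 4.45-fold lower in library 2. Its paralog Atp6v0a2 was counted 7335 and 3449 times, and Tcirg1, the a3 subunit of lysosomes and osteoclasts, 3308 and 6310 times. Of the summed TPM of the a subunits, Atp6v0a1 took 36.4% and 17.9%, Atp6v0a2 38.3% and 22.4%, and Tcirg1 25.3% and 59.8%, with no count for Atp6v0a4. Tcirg1 was thus the lowest of the 3 in library 1 and the highest in library 2. Atp6v0d1 (chr8:105524465-105566047, minus strand), which couples the ring to the stalk, was at 68.2 and 33.3 CPM, a log2 ratio of -1.03 with an interval of -1.14 to -0.93 that includes 2-fold. Its paralog Atp6v0d2, known from osteoclasts and some macrophages, had 2 and 50 counts. The ratios of Atp6v0a1 and Atp6v0d1 were -1.85 and -1.29 after adjustment for GC content and length.

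The V1 genes, by contrast, were all within 2-fold and slightly higher in library 2. Atp6v1b2 and Atp6v1a, the B and A subunits of the catalytic head, were at 192 and 215 CPM and at 82.2 and 93.9 CPM. Atp6v1h, a regulatory subunit, was at 85.6 and 107 CPM. The log2 ratios of the 3 were 0.17, 0.19 and 0.33, and stayed above 0 under each of the scalings and adjustments applied. This direction was not particular to V1. Of the V0 subunits, Atp6v0b (0.15), Tcirg1 (0.12) and Atp6v0e (0.46) were also higher in library 2, while Atp6v0a1, Atp6v0a2, Atp6v0c and Atp6v0d1 were lower. Per length Atp6v1b2 exceeded Atp6v1a by 2.66-fold and 2.61-fold. The accessory proteins Atp6ap1 and Atp6ap2, which help to assemble the pump, were also higher in library 2, at 793 and 926 CPM and at 356 and 472 CPM. Per length they exceeded all 3 V1 genes, with 745 and 701 TPM for Atp6ap1 and 386 and 413 TPM for Atp6ap2.

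The 16 other subunits of the pump had the same contrast of used and unused paralogs in both mice. Atp6v1g1 was the most abundant per length, at 424 and 524 TPM, followed by Atp6v1f at 416 and 429 TPM, and Atp6v0e was at 173 and 192 TPM. With the longest transcript as length Atp6v1f came first, at 427 and 446 TPM against 330 and 413 TPM for Atp6v1g1. The others that were well counted were Atp6v1c1 (99.5 and 114 TPM), Atp6v1e1 (91.6 and 148 TPM) and Atp6v1d (44.4 and 67.4 TPM). Other paralogs were low: Atp6v1b1 had 1 and 1 counts, Atp6v1c2 7 and 4, Atp6v0e2 18 and 60, and Atp6v1g2 80 and 136, and Atp6v1e2 and Atp6v1g3 had none. Of the 10 counted, Atp6v0a2 was more than 2-fold lower in library 2 (log2 ratio -1.90) and Atp6v1e1 more than 2-fold higher (1.005). Summed over all 23 subunits, accessory proteins left out, the pump was at 2478 and 2582 CPM.

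**Figure D4:**
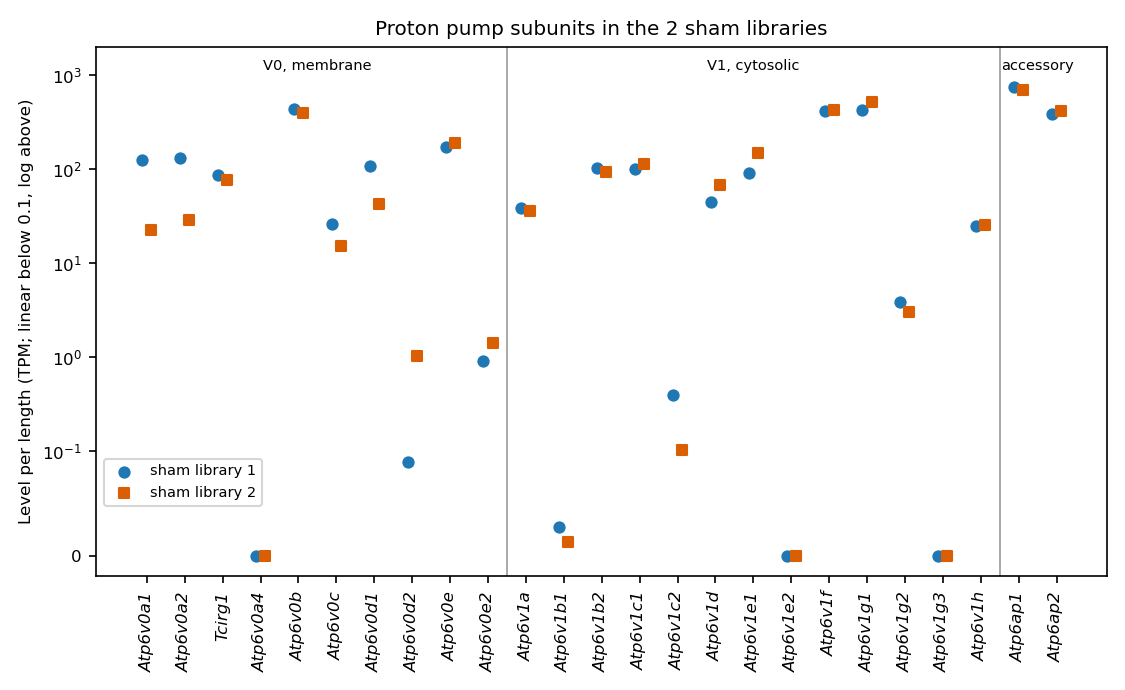
Level per length of the proton pump subunits and their paralogs in the 2 sham libraries, in TPM on an axis that is linear below 0.1 and logarithmic above; each point is 1 library of 1 mouse. Atp6v0a1 and Atp6v0a2 are higher in library 1, Tcirg1 is similar in both, and several paralogs lie near or at 0.

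Transcript length moved with the ratio between the libraries. Over all genes counted, the median log2 ratio was 0.17 for transcripts of 1656 to 2143 bases and -1.05 for the longest 10%, above 6440 bases. The lysosome genes followed the same course: the 22 longer than the median gene (3106 bases) had a median log2 ratio of -0.57, and the 25 others 0.03. Across genes, which are not independent replicates and share both libraries, Spearman's rho of the ratio with length was -0.30 over the 47 and -0.38 over all genes counted. Lamp1, with a longest transcript of 2229 bases, and Atp6v0d1, with 1629 bases, lay far below genes of their length, whereas Gaa, with 3633 bases, did not after GC content was also taken into account. The part of RNA quality or library preparation in this was not tested.

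**Figure D5:**
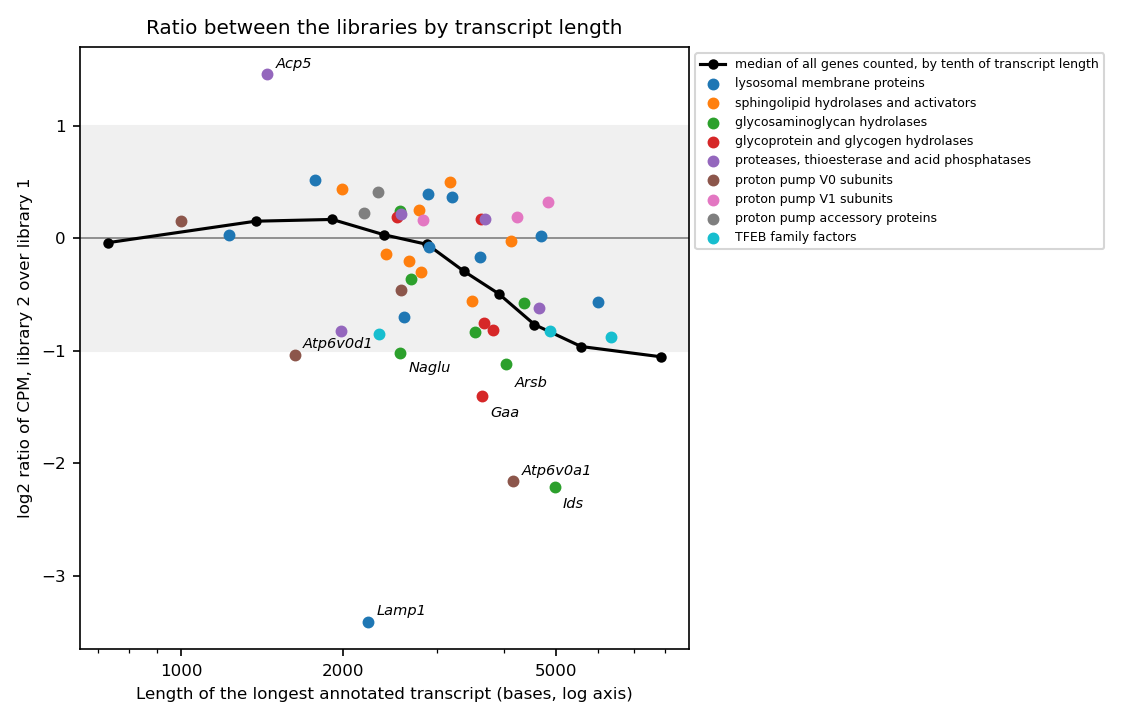
Log2 ratio of CPM in library 2 over library 1 against the length of the longest annotated transcript in bases (log axis); the black line joins the medians of all genes counted in 10 bins of length, coloured points are the 47 lysosome genes by role, and the grey band spans 2-fold either way. The line falls from 0.17 at its highest point to -1.05, and Lamp1, Atp6v0a1, Ids and Acp5 lie apart from it.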

How the data were processed

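Microglia were sorted from 2 sham-operated mice, 1 per library. Per the study's methods, cDNA was made with SMART-Seq HT, libraries with Nextera XT, and reads were mapped to GRCm38 with HISAT2 and counted per Ensembl gene with HTSeq; the authors deposited these raw counts without scaling. Versions, annotation release and strand setting are not given in the sources used here. The labels name sham surgery in the title and no treatment.

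CPM used the total of each file. TPM used the union of exons in GENCODE M21. A gene was called counted from 10 counts upward in each library, and 2-fold was the threshold. Intervals of ratios and shares are exact (Clopper-Pearson, 95%). For GC content and length the longest transcript of a gene was used; the adjusted ratio is the log2 ratio less the median of genes in the same of 10 bins of each, or of length alone where under 20 genes shared both. The calculations were tested on simulated data. Alternatives were TMM (edgeR 4.0.16), DESeq2 1.42.0 size factors, totals without mitochondrially encoded or neutrophil genes, other filters and folds, and leaving out each library. R 4.3.3, Python 3.11.15, pandas 2.3.3, numpy 2.4.6, scipy 1.17.1 and matplotlib 3.10.9 were used.

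The genes and lists were chosen with earlier results of these data known. By rule, the 2 highest and the lowest gene of each role by mean TPM, each gene past 2-fold, and all pump subunits are given with values, and of each list of other lysosome genes the highest and the lowest. Some genes that these lists hold are not reported here.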

Additional observations from a re-analysis of the deposited data

How the results depend on the processing

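The summed level was 25408 CPM, and 22180 to 28635 CPM when either library was left out. The median log2 ratio of the lysosome genes, -0.16, turned to 0.10 with TMM, 0.10 with DESeq2 size factors and 0.041 after adjustment for GC content and length, and stayed below 0 with totals lacking mitochondrially encoded or neutrophil genes. The 8 genes past 2-fold (7 lower, 1 higher) became 5 with TMM and 5 with DESeq2 size factors (4 lower in each: Lamp1, Ids, Atp6v0a1 and Gaa), 17 at 1.5-fold (16 lower) and 3 at 3-fold (3 lower, 0 higher). After the adjustment 5 were lower, Lamp1, Ids, Atp6v0a1, Atp6v0d1 and Lgmn, and Gaa turned from -1.40 to 0.043. These differences follow from the totals, folds and bins used. Of all genes counted, 19.4% were more than 2-fold lower and 8.87% higher with TMM, and 19.2% and 8.96% with DESeq2 size factors. At 1.5-fold these shares were 38.3% and 12.6%, at 3-fold 12.8% and 2.94%, and at 2-fold after the adjustment 12.7% and 9.70%. Over all genes, those lower in library 2 made up 81.9% of those past 2-fold, 68.6% with TMM, 68.2% with DESeq2 size factors and 56.7% after the adjustment. With TCATGTG in place of TCACGTG, 6 promoters matched in place of 13. Using the longest transcript as the length changed TPM by factors of 0.783 to 2.07. No paired analysis was possible because the series holds 1 group. With 2 mice, a difference between them cannot be assigned to biology, cell mixture or library preparation. Counting error was widest for Acp5 and Gla, with 53 and 142 counts in library 1.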

Other observations

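Lysosome genes outside the 47 summed to 81646 and 94857 CPM, against 28635 and 22180 CPM for the 47. Their median was at 80.2 and 67.4 TPM, against 108 and 75.8 TPM for the 47. Of 83 such genes in 5 lists, 72 were counted, with a median log2 ratio of 0.11. In library 2, 8 (11.1%) were more than 2-fold lower and 4 (5.56%) more than 2-fold higher, against 25.9% and 5.74% of all genes counted. Cathepsins and cystatin C, 14 genes, summed to 65163 and 76558 CPM, more than all 47 together. Cst3, which encodes the protease inhibitor cystatin C, was the highest at 69426 and 78733 TPM, and of its list Ctsw was the lowest by mean, at 1.74 and 1.51 TPM. Ctse was more than 2-fold higher in library 2, and Ctsk, known from osteoclasts, had 5 counts in library 1 and 270 in library 2.

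Among 20 other hydrolases Cpvl was lowest, with 0 and 5 counts. Man2b2 and Galc (the enzyme lost in Krabbe disease) were more than 2-fold lower in library 2, with log2 ratios of -2.44 and -1.67, and Smpdl3a was more than 2-fold higher, at 1.14.

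Among 20 other membrane and transport proteins the metal transporter gene Slc11a1 was highest, at 371 and 282 TPM, and Lamp3 had no count. Abca2, Clcn7 (the chloride and proton exchanger) and Tpcn2 were more than 2-fold lower in library 2, at -2.87, -2.14 and -1.08, while the partner of Clcn7, Ostm1, was at -0.22. Of 13 genes of enzyme sorting and nutrient sensing, Nagpa was highest, at 326 and 263 TPM. The 2 mannose 6-phosphate receptors, which carry hydrolases to the lysosome, were unequal: M6pr had 7130 and 13094 counts, and Igf2r, the lowest of the list, 7 and 74. Gnptab, which makes the mannose 6-phosphate tag, was at 514 and 146 counts, a log2 ratio of -2.63, whereas its partner Gnptg was at 0.43.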
